A study of Mus musculus with 7 samples.

Results

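The 10 elastic fibre and microfibril genes described here were taken by symbol from a fixed list, and all 10 were found among the 49671 genes of the deposited count table: Eln, Fbn1, Fbn2, Fbln1, Fbln2, Fbln5, Mfap2, Mfap4, Mfap5 and Emilin1. They were measured by mRNA sequencing of whole mouse femurs. The injured group (4 libraries) was wild type, with femurs taken 3 days after traumatic brain injury (TBI) by controlled cortical impact, a blow of a piston to the exposed brain. The other was uninjured wild-type mice whose treatment label reads control (3 libraries). The sources used here do not say whether the control mice had the surgery without the blow, and they give no strain, age or sex. The labels do not say that each library came from a different mouse, so the p-values measure the spread between these libraries, which may be technical.

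Elastic fibres let a tissue recoil after it is stretched. Their core is crosslinked elastin, laid down on a scaffold of microfibrils that are built from fibrillins and decorated by microfibril-associated glycoproteins, with fibulins and emilins at the interface. Microfibrils also occur without elastin and hold latent growth factors of the TGF-beta and BMP families in the matrix. In a long bone these proteins are known from periosteum, tendon and ligament attachments, cartilage surfaces and vessel walls, and microfibrils also from the bone matrix itself.

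Of the genes of the microfibril scaffold, Fbn1 and Mfap2 had lower values in all 4 TBI libraries than in any control library, whereas Eln, the elastin gene, had nearly the same mean in both groups. Fbn1, the main fibrillin, averaged 59.5 ± 7.64 CPM (counts scaled to a common library size with TMM; SD, n = 4) in TBI femurs and 78.6 ± 2.79 CPM (SD, n = 3) in control femurs. Mfap2, a small glycoprotein bound to fibrillin, averaged 6.82 ± 0.685 CPM in TBI femurs and 11.4 ± 2.16 CPM in control femurs. They were the 2 of the 10 members whose highest TBI value was under the lowest control value, against 5.38% of the 17144 genes tested (922 genes). Without control 1 the number of members was 4, and likewise 4 without control 3. With fewer controls any gene is separated more easily, and the share of all genes was not counted at those settings. Eln averaged 37.2 ± 11.0 CPM in TBI femurs and 36.9 ± 9.81 CPM in control femurs. The log2 ratio of Eln to Fbn1 was 0.42 higher on average in TBI femurs, with overlapping groups (two-sided exact permutation p = 0.229). With 3 against 4 libraries that test has only 35 relabellings, so a p of this size does not show that the ratio was unchanged.

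No member passed the test that was applied across all genes. In edgeR's quasi-likelihood test 0 of the 10 members had a Benjamini-Hochberg adjusted p under 0.05, as did 0% of all genes tested (0 genes). At an unadjusted p under 0.05, 4 members (Fbn1, Fbn2, Mfap2 and Mfap4) had a lower estimate, against 4.97% of all genes (852 genes). That number of members was 2 without TBI 1, 2 without control 2, 6 with the muscle marker mean as a covariate and 7 with the replicate block. The number of all genes at that level, in either direction, also moved. It was 1259 in the main fit, 1714 without TBI 1 and 592 without control 2. With the muscle covariate it was 2770, and with the replicate block 1909. DESeq2 called 0 members, against 0.672% of the genes it gave an adjusted p (104 genes lower). Of the 10 members 9 had a log2 fold change (TBI over control) under 0, against 45.6% of all genes tested. The median of the members was −0.34 (−0.55 without TBI 3 and TBI 4 together) and that of all genes tested 0.03. The members were listed with earlier results of these data known, so these counts describe them and test nothing. In a crushed bone, fewer cells of a type and less mRNA per cell cannot be told apart.

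**Figure D1:**
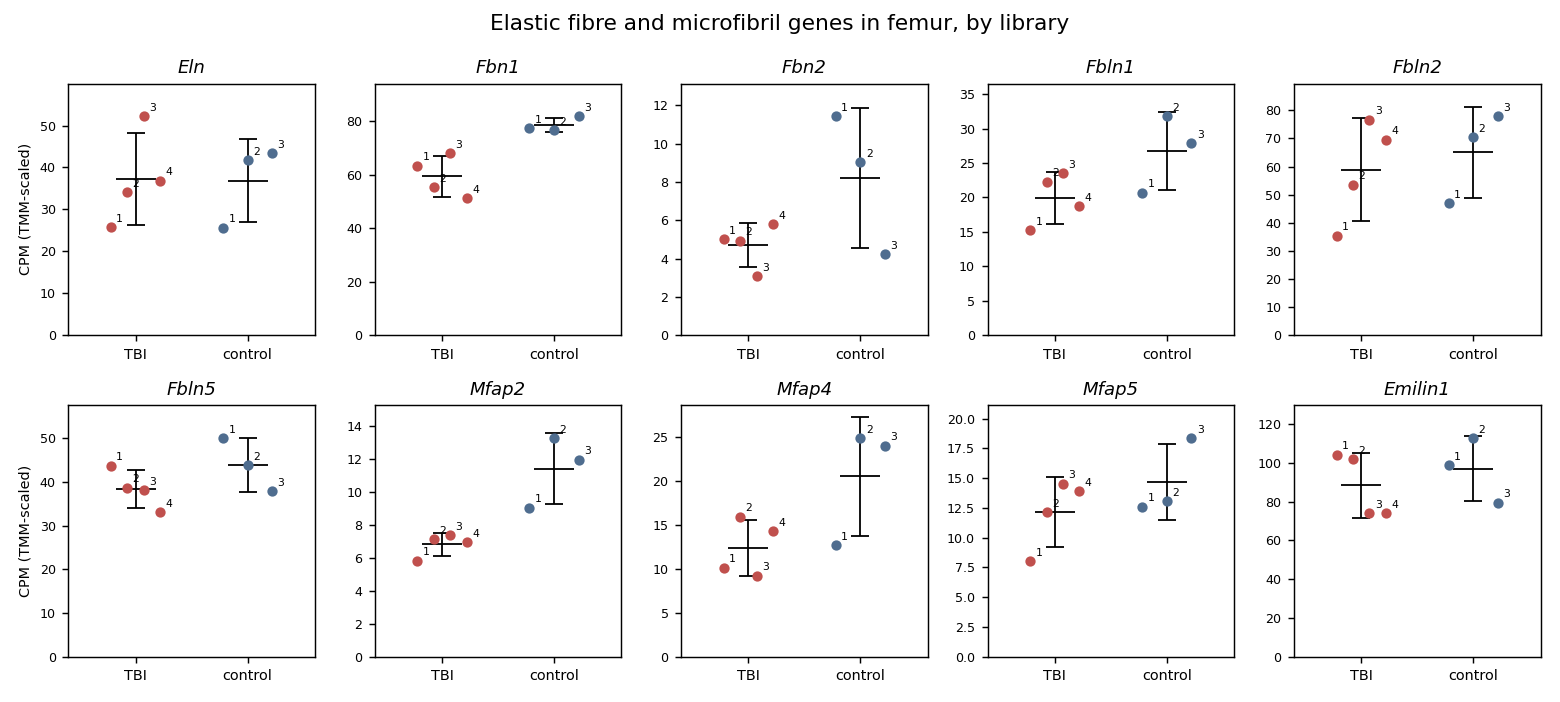
TMM-scaled CPM of each of the 10 genes on its own axis from 0, with the 4 TBI libraries (red, left) and the 3 control libraries (blue, right) numbered by replicate; bars give the mean and SD. The groups are apart for Fbn1 (51.2 to 68.1 CPM in TBI, 76.7 to 81.8 CPM in control) and Mfap2 (5.82 to 7.37 CPM in TBI, 9.03 to 13.2 CPM in control) and overlap for the other genes.

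Sequences of promoters are shown for the 2 members whose groups were apart, Fbn1 and Mfap2, and for 2 whose groups overlapped, Fbln2 and Emilin1. They are RefSeq's windows on GRCm38.p6, 250 bases before to 50 bases after an annotated start, 5′ to 3′ on the gene's strand, and 6 of the 10 members were matched. Capitals mark the GC box, GGGCGG on either strand, and no other searched motif was found in these 4 windows.
Fbn1 (chr2:125506389-125506688, minus strand): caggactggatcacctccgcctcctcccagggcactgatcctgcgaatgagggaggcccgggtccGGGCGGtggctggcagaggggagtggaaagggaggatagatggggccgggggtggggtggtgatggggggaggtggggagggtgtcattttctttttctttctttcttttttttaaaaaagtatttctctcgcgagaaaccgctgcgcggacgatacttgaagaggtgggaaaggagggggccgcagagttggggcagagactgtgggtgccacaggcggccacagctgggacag
Mfap2 (chr4:141010431-141010730, plus strand): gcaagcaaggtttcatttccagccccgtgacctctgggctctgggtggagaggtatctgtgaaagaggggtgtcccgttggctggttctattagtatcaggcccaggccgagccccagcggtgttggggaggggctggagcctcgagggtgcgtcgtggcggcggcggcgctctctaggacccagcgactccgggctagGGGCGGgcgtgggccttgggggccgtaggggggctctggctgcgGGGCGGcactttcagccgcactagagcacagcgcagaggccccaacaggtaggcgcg
Fbln2 (chr6:91212514-91212813, plus strand): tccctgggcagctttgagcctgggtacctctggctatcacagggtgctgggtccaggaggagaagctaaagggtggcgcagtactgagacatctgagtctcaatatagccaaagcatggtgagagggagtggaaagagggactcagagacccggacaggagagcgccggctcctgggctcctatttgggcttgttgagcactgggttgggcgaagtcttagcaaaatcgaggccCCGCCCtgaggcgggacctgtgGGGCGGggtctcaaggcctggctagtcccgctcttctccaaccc
Emilin1 (chr5:30913536-30913835, plus strand): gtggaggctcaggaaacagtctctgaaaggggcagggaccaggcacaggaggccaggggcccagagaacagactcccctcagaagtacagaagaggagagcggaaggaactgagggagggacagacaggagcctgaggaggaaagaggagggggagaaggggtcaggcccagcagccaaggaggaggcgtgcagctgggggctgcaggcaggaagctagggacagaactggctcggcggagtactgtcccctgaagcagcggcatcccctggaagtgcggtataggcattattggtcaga
The GC box occurred 1 time in the Fbn1 window, 2 times in the Mfap2 window, 2 times in the Fbln2 window and 0 times in the Emilin1 window, and 35.7% of the 32851 promoter windows in the table held it. The GC content was 60.3% for Fbn1, 68.0% for Mfap2, 60.3% for Fbln2 and 61.7% for Emilin1, with a median of 52.7% over the table. The other motifs were also searched on both strands. The TATA box, TATAAA, was held by 13.6% of the windows in the table. The AP-1 site, TGANTCA, was held by 7.8%, and the MCAT site, CATTCC, by 14.7%. No 2 marked motifs overlapped. The table gives Mfap2 another start site, at position 141010424 of chromosome 4, whose window held 0 GC boxes and 1 MCAT site.

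Per kilobase of merged exon, Emilin1 was the most abundant of the 10 mRNAs and Fbn2 the least. Emilin1 stood at 17.9 ± 3.40 RPKM (CPM per kilobase of exon; SD, n = 4) in TBI femurs and 19.6 ± 3.39 RPKM (SD, n = 3) in control femurs, and Fbn2 at 0.356 ± 0.0867 RPKM in TBI femurs and 0.622 ± 0.277 RPKM in control femurs. In TBI femurs Fbln2 came next at 9.23 ± 2.88 RPKM, and the other 7 genes lay between 3.39 (Mfap5) and 6.46 RPKM (Mfap4). In control femurs Mfap4 (10.7 ± 3.53 RPKM), Fbln2 (10.2 ± 2.53 RPKM) and Mfap2 (9.41 ± 1.78 RPKM) lay within 1 SD of each other, below Emilin1. Below them lay Fbn1 (6.48 ± 0.230 RPKM), Fbln5 (6.35 ± 0.883 RPKM) and Fbln1 (6.13 ± 1.29 RPKM), each mean closer to its neighbour in that order than either SD, followed by Eln (4.55 ± 1.21 RPKM) and Mfap5 (4.09 ± 0.892 RPKM), which also did not differ beyond their spread. Merged exons include retained introns and rare exons, so the levels of genes with such transcripts are understated.

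Elastin is the core protein, and Eln (ENSMUSG00000029675, protein coding, GRCm38 chromosome 5, 134702593 to 134747323, minus strand) encodes its soluble precursor. It measured 25.8, 34.1, 52.2 and 36.8 CPM in TBI libraries 1 to 4, against 25.6, 41.7 and 43.4 CPM in control libraries 1 to 3. The lowest values came from TBI 1 and control 1 and the highest from TBI 3, so the groups covered one another. The log2 fold change was 0.01 ± 0.26 (SE) and lay between −0.32 and 0.15 over the alternative settings, so it has no settled sign.

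The gene whose log2 CPM most resembled that of Eln over the 7 libraries, among 10265 non-member genes of at least 10 CPM, was Notch3 (Pearson r = 0.99), a receptor of vascular smooth muscle cells and pericytes. Tcta, Sema3g, Rpap1 and Bcam followed with r = 0.98 each. With 7 libraries and so many candidates, values of this size describe the ranking only. Notch3 measured 37.3, 46.1, 61.0 and 48.7 CPM in TBI libraries 1 to 4, against 35.8, 50.4 and 51.8 CPM in control libraries 1 to 3. The 8 smooth muscle and pericyte markers summed to 323, 439, 856 and 592 CPM in TBI libraries 1 to 4, against 305, 446 and 523 CPM in control libraries 1 to 3. As for Eln, TBI 1 and control 1 were lowest and TBI 3 was highest. All 7 tested markers of that list had a positive estimate, 0 were called and 0 of the 8 were at 0 counts. Their part in the Eln value was not tested.

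**Figure D2:**
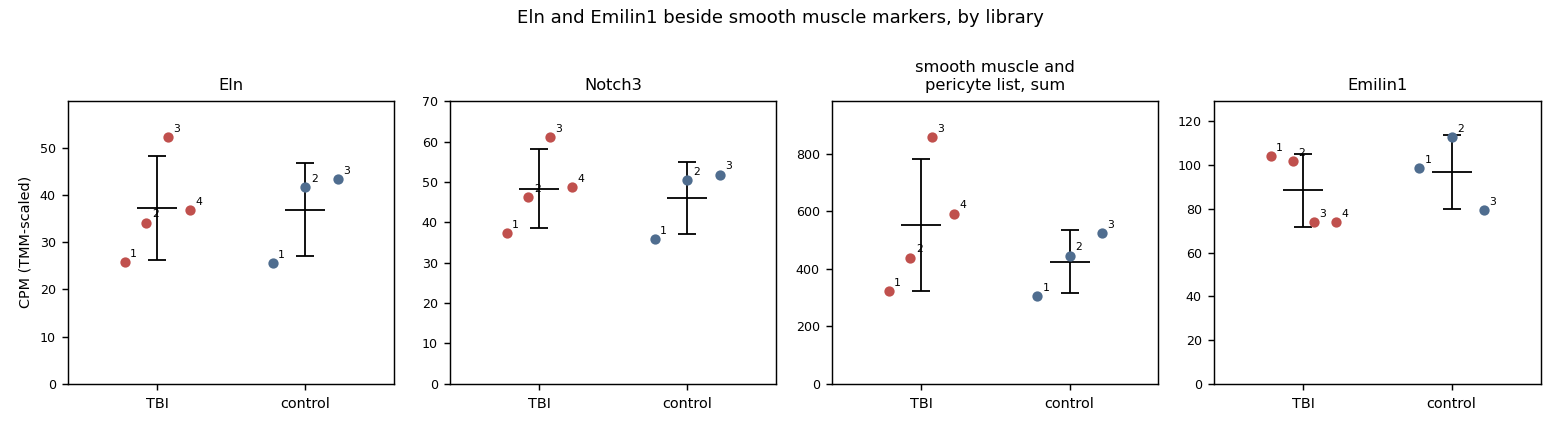
TMM-scaled CPM by library, each panel on its own axis from 0, with TBI libraries in red on the left and control libraries in blue on the right, numbered by replicate, and bars for the mean and SD. Eln, Notch3 and the summed smooth muscle and pericyte list are each lowest in TBI 1 and control 1 and highest in TBI 3 (52.2 CPM for Eln), while Emilin1 is lowest in TBI 3, TBI 4 and control 3.

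The fibrillins form the rods of the microfibril. Fbn1 encodes fibrillin-1, the protein altered in Marfan syndrome (ENSMUSG00000027204, protein coding, chromosome 2, 125300594 to 125507993, minus strand). It measured 63.3, 55.3, 68.1 and 51.2 CPM in TBI libraries 1 to 4, against 77.4, 76.7 and 81.8 CPM in control libraries 1 to 3. The control values were close together, and the highest TBI value, from TBI 3, was still below all of them. The log2 fold change was −0.40 ± 0.12 (SE; adjusted p = 0.544 in edgeR's quasi-likelihood test), equal to 75.7% of the control level. It lay between −0.47 and −0.34 when each library was left out in turn. An overlapping gene on the opposite strand, Gm9913, shares 2442 bases of exon with Fbn1 but had 16 counts in all 7 libraries together. The genes most like Fbn1 over the 7 libraries were Mylip (r = 0.97), Slc22a4 (0.96), Nde1 (0.96), Abhd4 (0.95) and Gpr137b (0.95), by the same ranking.

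Fbn2 encodes fibrillin-2, which is most abundant in development (ENSMUSG00000024598, chromosome 18, 58008623 to 58210487, minus strand). It was scarce, with 57 to 116 counts per TBI library and 81 to 253 counts per control library. Its levels were 5.0, 4.94, 3.09 and 5.80 CPM in TBI libraries 1 to 4, against 11.4, 9.02 and 4.22 CPM in control libraries 1 to 3. Control 3 lay among the TBI values, so the groups overlapped. The log2 fold change of −0.80 ± 0.34 was the lowest of the 10 in this fit, and it stood at −0.49 without control 1 and −1.12 without control 3.

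Mfap2 and Mfap5 encode the paired microfibril-associated glycoproteins that bind fibrillin. Mfap2 (ENSMUSG00000060572, chromosome 4, 141010418 to 141015984, plus strand) measured 5.82, 7.11, 7.37 and 6.96 CPM in TBI libraries 1 to 4, against 9.03, 13.2 and 11.9 CPM in control libraries 1 to 3. All TBI values lay below the lowest control value, from control 1. With a log2 fold change of −0.74 ± 0.18 (SE), equal to 59.8% of the control level, it had the smallest p of the 10 members (unadjusted p = 0.00281 and adjusted p = 0.423 in edgeR's quasi-likelihood test, adjusted p = 0.0611 in DESeq2). This rests on 132 to 167 counts per TBI library and 200 to 229 counts per control library, and the estimate lay between −0.89 and −0.62 when each library was left out in turn.

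Mfap5 (ENSMUSG00000030116, chromosome 6, 122505845 to 122529290, plus strand) measured 8.04, 12.1, 14.5 and 13.9 CPM in TBI libraries 1 to 4, against 12.6, 13.1 and 18.4 CPM in control libraries 1 to 3. The groups overlapped, with TBI 1 below and control 3 above the rest. Its log2 fold change was −0.27 ± 0.23, and −0.08 without control 3. Mfap4 is a fibrinogen-related protein that binds elastin and fibrillin (ENSMUSG00000042436, chromosome 11, 61485431 to 61488900, plus strand). It measured 10.2, 16.0, 9.22 and 14.3 CPM in TBI libraries 1 to 4, against 12.7, 24.9 and 24.0 CPM in control libraries 1 to 3. Control 1 lay among the TBI values and far below the other controls. The log2 fold change was −0.72 ± 0.28 (adjusted p = 0.637 in edgeR), and −0.98 without control 1. Mfap4 shares 89 bases of exon with Mapk7 on the opposite strand, and the sources used here do not say whether counting used the strand.

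**Figure D3:**
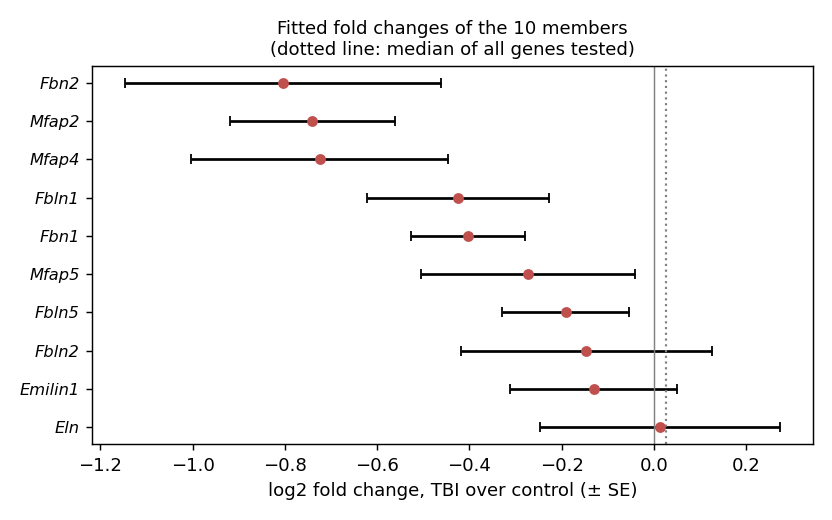
Log2 fold change of TBI over control with its SE (horizontal axis) for each of the 10 genes, lowest at the top; the dotted line is the median of all genes tested (0.03). Fbn2, Mfap2 and Mfap4 lie between −0.80 and −0.72, Fbln1 and Fbn1 at −0.42 and −0.40, and Eln at 0.01.

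Fibulins connect elastin, fibrillin and the basement membrane. Fbln1 (ENSMUSG00000006369, chromosome 15, 85205949 to 85286535, plus strand) measured 15.2, 22.3, 23.5 and 18.7 CPM in TBI libraries 1 to 4, against 20.7, 31.8 and 27.9 CPM in control libraries 1 to 3. Control 1 overlapped the TBI values and the other controls lay above them. Its log2 fold change was −0.42 ± 0.20 (SE; adjusted p = 0.694 in edgeR). Fbln2 (ENSMUSG00000064080, chromosome 6, 91212455 to 91272540, plus strand) measured 35.4, 53.6, 76.7 and 69.6 CPM in TBI libraries 1 to 4, against 46.9, 70.4 and 77.8 CPM in control libraries 1 to 3. The spread inside each group exceeded the difference of their means. Its log2 fold change was −0.15 ± 0.27, but 0.03 without TBI 1, 0.0030 without control 3 and −0.42 with the muscle marker mean as a covariate.

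Fbln5 encodes a fibulin that mice need to assemble elastic fibres (ENSMUSG00000021186, chromosome 12, 101746565 to 101819055, minus strand). It measured 43.8, 38.7, 38.2 and 33.1 CPM in TBI libraries 1 to 4, against 50.1, 43.8 and 37.8 CPM in control libraries 1 to 3. The groups overlapped, and the log2 fold change was −0.19 ± 0.14. Emilin1, a glycoprotein at the border of elastin and microfibrils that also restrains TGF-beta maturation (ENSMUSG00000029163, chromosome 5, 30913402 to 30921277, plus strand), measured 104, 102, 74.0 and 73.9 CPM in TBI libraries 1 to 4, against 98.7, 113 and 79.3 CPM in control libraries 1 to 3. Each group held both high and low libraries. The log2 fold change was −0.13 ± 0.18, and 0.07 without TBI 3 and TBI 4 together. The low Emilin1 libraries, TBI 3, TBI 4 and control 3, were those with the most skeletal muscle mRNA. The 12 muscle markers summed to 22356, 35274, 92885 and 117126 CPM in TBI libraries 1 to 4, against 18849, 36681 and 63946 CPM in control libraries 1 to 3. With their mean as a covariate, the Emilin1 estimate was −0.02, while the median over the 10 members went from −0.34 to −0.44. The part of muscle in the Emilin1 values was not tested.

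Seen by library, most members lay below the control mean in each TBI library. The number below the control mean was 9 in TBI 1, 9 in TBI 2, 8 in TBI 3 and 9 in TBI 4, and the median difference on the log2 scale was −0.77, −0.28, −0.20 and −0.46. TBI 1 had the lowest Fbln1, Fbln2, Mfap2 and Mfap5 of the 7 libraries, and TBI 3 the lowest Fbn2 and Mfap4. TBI 3 also had the highest Eln. Control 1 itself lay below the control mean for 7 members, with a median difference of −0.28. Over the 45 pairs of members, r of log2 CPM in the 7 libraries ran from −0.60 (Mfap5 and Emilin1) to 0.91 (Eln and Fbln2), with a median of 0.33. Eln, Fbln2 and Mfap5 ran together (r = 0.71 to 0.91), as did Fbln1, Mfap2 and Mfap4 (r = 0.75 to 0.90), whereas Emilin1 followed Fbln5 (r = 0.72). The first sets were not separate, since Fbln1 also ran with Fbln2 (r = 0.74), Mfap5 (r = 0.71) and Eln (r = 0.67). These values share their libraries and the group difference and are given as a description.

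**Figure D4:**
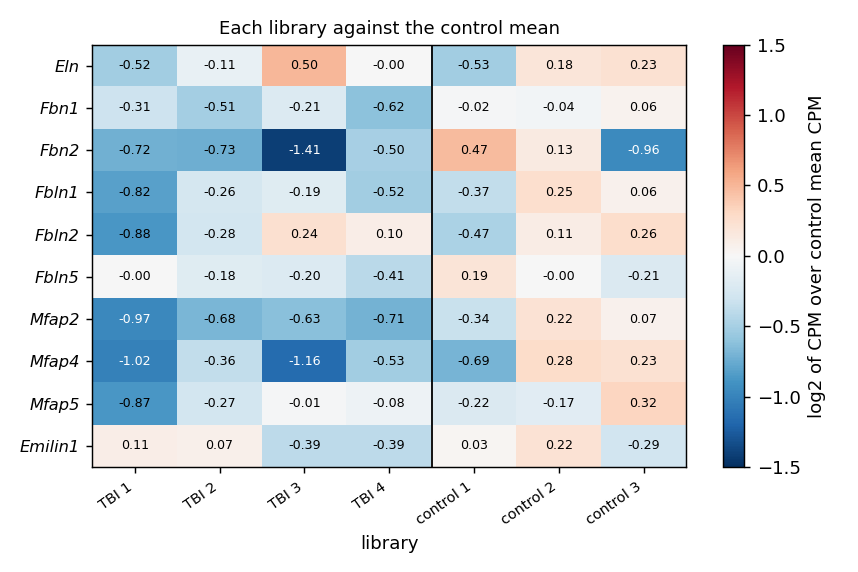
Log2 of each gene's CPM over its control mean, by library (columns, TBI left of the line, control right of it; blue lower, red higher). Mfap2 is blue in every TBI column (−0.97 to −0.63), while Eln runs from −0.52 in TBI 1 to 0.50 in TBI 3.

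Ratios within a library do not depend on scaling. The log2 ratio of Eln to Fbn1 per kilobase was −0.71, −0.11, 0.20 and 0.11 in TBI libraries 1 to 4, against −1.01, −0.30 and −0.33 in control libraries 1 to 3. It was 0.42 higher on average in TBI femurs, with overlapping groups (two-sided exact permutation p = 0.229; p = 0.343 adjusted over the 3 ratios). The log2 ratio of Mfap5 to Mfap2 was −1.10, −0.80, −0.59 and −0.57 in TBI libraries, against −1.09, −1.59 and −0.95 in control libraries, a mean difference of 0.44 (exact permutation p = 0.114; 0.343 adjusted). The log2 ratio of Fbn2 to Fbn1 averaged −3.80 ± 0.556 in TBI libraries (SD, n = 4) and −3.49 ± 0.794 in control libraries (SD, n = 3; exact permutation p = 0.514). None of these differences passed 0.05. With 3 against 4 libraries the test has only 35 relabellings, so these p-values do not show that a ratio was unchanged.

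Further genes tied to elastic fibres were read from 7 lists, of which 5 hold assembly and scaffold genes, 1 elastin-degrading enzymes and 1 growth factors held by microfibrils. Of the 39 genes on these lists 38 were tested, and 27 of them had a lower estimate in TBI femurs (median log2 fold change −0.29), against 45.6% of all genes tested. In edgeR 0 of the 38 were called, 13 had an unadjusted p under 0.05 with a lower estimate (4.97% of all genes) and 0 with a higher one. For 10 of the 38 the highest TBI value was under the lowest control value (5.38% of all genes).

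The elastin crosslinking enzymes had lower estimates at both genes. Lox, the lysyl oxidase that acts on elastin and collagen, averaged 66.7 ± 6.13 CPM in TBI femurs and 105 ± 31.1 CPM in control femurs (log2 fold change −0.65 ± 0.20). Loxl1, which is needed for elastin renewal in mice, averaged 39.9 ± 5.71 CPM in TBI femurs and 58.8 ± 12.1 CPM in control femurs (−0.56 ± 0.17). In both cases control 3 was far below the other controls, at 70.2 CPM for Lox and 45.6 CPM for Loxl1. Control 3 lay below TBI 1 for Lox (73.3 CPM) and below TBI 2 for Loxl1 (45.9 CPM), so the groups overlapped. The adjusted p in edgeR's quasi-likelihood test was 0.539 for each gene. Among the other fibulins 4 of 5 had a lower estimate. Efemp2, a fibulin that brings Lox to elastin, had 22.8, 26.5, 23.2 and 18.7 CPM in TBI libraries 1 to 4, against 30.2, 36.3 and 28.3 CPM in control libraries 1 to 3, with the groups apart (−0.47 ± 0.15). Hmcn1, a hemicentin, had 4.91, 5.49, 4.28 and 4.16 CPM in TBI libraries 1 to 4, against 7.04, 7.44 and 8.18 CPM in control libraries 1 to 3, again apart (−0.68 ± 0.17; adjusted p = 0.443 in edgeR).

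Latent TGF-beta binding proteins anchor the stored growth factor to microfibrils, and 3 of the 4 had a lower estimate. Ltbp2 averaged 45.9 ± 11.4 CPM in TBI femurs and 69.4 ± 8.11 CPM in control femurs (−0.59 ± 0.19, groups apart), and Ltbp3 stood at −0.32 ± 0.19. Of the 8 ADAMTS-family genes whose proteins are tied to fibrillin, 5 had a lower estimate, with Adamts10 at −0.38 ± 0.12 (groups apart) and Adamts6 at −0.58 ± 0.27. Of the other emilins and multimerins 2 of 4 had a lower estimate, with Emilin3 at −0.98 ± 0.39 and Mmrn1, a platelet and endothelial protein, at 0.50 ± 0.32. Among 6 tested growth factors held by microfibrils, 5 had a lower estimate, with Bmp7 at −0.93 ± 0.35 and Bmp2 at −0.32 ± 0.19.

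Of 9 enzymes that can degrade elastin, 6 had a lower estimate. Mmp2, a gelatinase of stromal cells, measured 160, 203, 161 and 183 CPM in TBI libraries 1 to 4, against 253, 374 and 333 CPM in control libraries 1 to 3. The groups were apart, the log2 fold change was −0.86 ± 0.17, and Mmp2 was the only gene of these lists that DESeq2 called (adjusted p = 0.00527; edgeR adjusted p = 0.423). Mmp12, the macrophage elastase, had 5, 1, 5 and 11 counts in TBI libraries 1 to 4, against 29, 16 and 18 counts in control libraries 1 to 3. The groups did not overlap, at counts too low for a firm fold change.

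**Figure D5:**
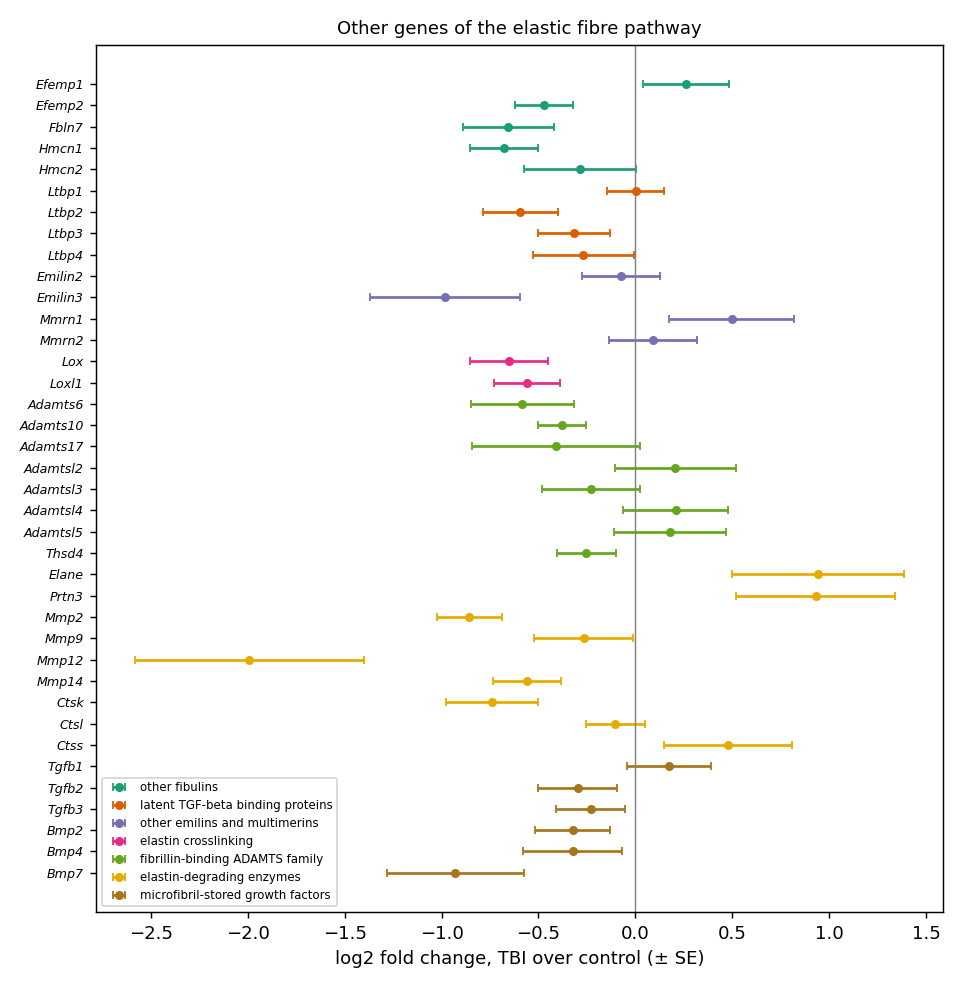
Log2 fold change of TBI over control with its SE for the 38 tested genes of 7 further lists, coloured by list. Lox and Loxl1 (−0.65 and −0.56) and Mmp2 (−0.86) lie left of 0, and the neutrophil proteases Elane (0.94) and Prtn3 (0.93) lie right of it.

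Marker lists of several cell types were read beside these values, and some of their sums lay apart between the groups while others overlapped. The 6 tendon markers summed to 464 to 634 CPM in TBI libraries, against 656 to 947 CPM in control libraries. All 6 had a lower estimate, 2 of them with groups apart (5.38% of all genes were apart and lower). The 8 chondrocyte markers summed to 1915 to 2403 CPM in TBI libraries, against 3147 to 3857 CPM in control libraries, with 8 lower estimates and 7 with groups apart. The 7 osteoblast markers summed to 10713 to 14801 CPM in TBI libraries, against 16076 to 27871 CPM in control libraries, with 7 lower estimates and 5 with groups apart. These levels also show that the libraries hold bone and cartilage mRNA. The 10 fibroblast and periosteum markers summed to 1190 to 1506 CPM in TBI libraries, against 1448 to 1986 CPM in control libraries. Those sums overlapped, and 8 of the 10 had a lower estimate, 2 with groups apart.

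Of the blood lineages, the erythroid markers (8 of 9 found) summed to 23166 to 32534 CPM in TBI libraries, against 44661 to 51396 CPM in control libraries. They had 8 lower estimates and 5 with groups apart. Of all genes tested, 45.6% had a lower estimate and 5.38% were apart and lower. The 6 B-cell markers summed to 34.9 to 160.7 CPM in TBI libraries, against 129.5 to 220.2 CPM in control libraries, with 6 lower estimates, 0 with groups apart and overlapping sums. The 9 neutrophil markers summed to 1905 to 11415 CPM in TBI libraries, against 2692 to 4423 CPM in control libraries, with 9 higher estimates and overlapping sums. Beside the smooth muscle list, all 6 endothelial markers had a higher estimate, with sums of 269 to 418 CPM in TBI libraries and 259 to 335 CPM in control libraries. So did all 6 adipocyte markers and all 12 skeletal muscle markers. Among the adipocyte markers 1 had its groups apart, against 2.66% of all genes apart and higher. The marrow stromal and macrophage lists had members on both sides (2 of 6 and 2 of 7 lower). None of the markers found was at 0 counts in all libraries. The part of these cells in the values of Fbn1, Mfap2 and the other members was not tested.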

How the data were processed

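Per the labels' protocols, whole femurs were crushed for RNA and stranded mRNA libraries were made. The authors deposited raw counts per Ensembl gene and a table of normalized values; the submitters' processing notes name STAR, DESeq and GRCm38 but no versions. The counting tool and whether it used the strand are not given in these sources. The normalized values (18549 genes, lowest 4.21) are on a log2 scale, judged from the deposited values, and served only for an alternative. Total counts were 20470241 to 21783534 in TBI libraries and 15461528 to 20675655 in control libraries. Replicates differed by more than sampling noise (chi-square per degree of freedom 27.2 or more in each pair, genes with at least 20 counts).

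Symbols, coordinates and merged exon lengths came from GENCODE M21 on GRCm38, which matched 49412 of 49671 identifiers (99.5%). Counts were filtered with filterByExpr (17144 genes left), scaled by TMM and tested with edgeR 4.0.16's quasi-likelihood F-test in R 4.3.3, adjusted by Benjamini-Hochberg over all genes, with a threshold of 0.05. The SE is the estimate over the root of its F statistic. DESeq2 1.42.0 and limma 3.58.1 were alternatives; DESeq2 gave 1664 genes no adjusted p. Ratios used counts plus 0.5 and two-sided exact permutation over 35 relabellings. The procedure was also run on simulated counts, where only the median error of the log2 fold changes had to be small. No requirement was set on how many true changes were called. The members, the gene lists and the rule for named genes (all members, the 2 genes of smallest p of each further list, and the 5 genes most like Eln or Fbn1) were chosen with earlier results of these data known; Elane, Prtn3 and the markers by library were named after their values were seen. No batch is named in the labels.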

Additional observations from a re-analysis of the deposited data

How the results depend on the processing

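No alternative run called any of the 10 members (0 called), and the count of all genes called was 0 in all of them except DESeq2 (114 genes). These were RLE and upper quartile scaling, TMM without the muscle markers, no filter, at least 1 CPM in 3 libraries, limma-voom with and without quality weights, limma on the deposited log2 values, the replicate block, the muscle marker mean as a covariate, a threshold of 0.1, each library left out, and TBI 3 and TBI 4 left out together. Fbn1, Fbn2, Fbln1, Fbln5, Mfap2, Mfap4 and Mfap5 kept a negative estimate throughout. The Eln estimate turned to −0.0271 with upper quartile scaling, −0.15 with quality weights, −0.0026 with the replicate block, −0.19 with the muscle covariate and −0.32 without TBI 3 and TBI 4, and ran from −0.19 (without control 1 or TBI 3) to 0.15 (without TBI 1) with 1 library left out. Fbln2 ran from −0.34 to 0.0263 in that way and turned positive without TBI 1 and without control 3 (0.0030). Emilin1 turned to 0.0667 without TBI 3 and TBI 4. The causes were not tested.

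The median over the members was −0.34, moved to −0.55 without TBI 3 and TBI 4, and ran from −0.42 to −0.29 with 1 library left out. The number of members whose groups were apart, lower in TBI, ran from 2 to 4, with 4 without control 1 and 4 without control 3. The share of all genes apart was not counted with libraries left out, where any gene is separated more easily. With 1 library left out the mean difference ran from 0.18 to 0.61 for the log2 ratio of Eln to Fbn1, from −0.76 to −0.0053 for Fbn2 to Fbn1 and from 0.25 to 0.57 for Mfap5 to Mfap2. The median was −0.35 with the replicate number as a block. Libraries of the same number did not all deviate together (correlations of 0.55, −0.03 and 0.32 for numbers 1 to 3). The labels name no pairing, and these correlations cannot show whether there was one. TBI 4 has no control of the same number, so it adds nothing to the group difference in the block fit. Depth limits Fbn2 and Mfap2 most, at 57 to 253 counts per library.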
